A study of Mus musculus with 37 samples.

Results

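Astrocytes of the injured hemisphere were compared between mice that developed post-traumatic epilepsy (PTE+) and mice that did not (PTE-), over the genes that were counted reliably in nearly every library. A gene was taken as well detected where it had at least 10 counts in at least 11 of the 12 ipsilateral libraries of injured mice. Of the 21975 genes in the tables, 8554 met this rule (38.9%), and the rule used neither the group nor the size of any difference. At the edge of the rule, 43 genes had exactly 10 and 46 exactly 9 counts as their 11th highest value.

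The mice were wild-type males, labelled WT CD31 and described as CD1 in the study's methods, aged 60 to 90 days at surgery. PTE+ and PTE- mice alike received a controlled cortical impact (CCI), a piston injury of the exposed cortex, at a depth of 2.5 mm. A mouse was classed as PTE+ after at least 2 seizures on video EEG recorded in the months after injury, so PTE- means that fewer were seen in that window. Sham mice had the craniectomy and the recording electrode without the impact. The hippocampus was taken 4 months after injury, and astrocytes were captured with magnetic beads against ACSA-2, an astrocyte surface antigen. The 12 compared libraries come from 4 PTE+ and 8 PTE- mice, 1 library per mouse, and 5 ipsilateral sham libraries entered the same fit. Mouse names begin with a8 or a9, a prefix that the labels do not explain and that was unevenly spread. It was a8 for a8_10 alone among PTE+ mice, for a8_9, a8_11 and a8_14 among PTE- mice, and for a8_15 and a8_16 among sham mice. Because captured cells were sequenced in bulk, fewer cells of a type and less RNA per cell cannot be told apart.

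Astrocytes clear glutamate and potassium from around synapses, feed neurons with lactate and lipoprotein cholesterol, and are joined to each other by gap junctions. After injury they become reactive: intermediate filaments such as GFAP and vimentin, small heat shock proteins, protease inhibitors and metal-binding proteins are part of that response. In epilepsy, astrocytes are studied chiefly for their part in glutamate, potassium, adenosine and inflammatory signalling.

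The most abundant of the 8554 genes included genes known from astrocytes and the mitochondrially encoded mt-Atp6, mt-Co3 and mt-Atp8. Apoe, the main lipoprotein of astrocytes, averaged 55972 ± 5861 TPM (transcripts scaled to a fixed total per library) in PTE+ and 57258 ± 6514 TPM in PTE- libraries (SD, n = 4 and 8). It was followed by Cst3, Clu and Ckb. All 20 astrocyte markers examined were well detected, and their summed level ran from 33873 to 41424 TPM in PTE+ libraries. In PTE- libraries it ran from 19499 to 44774 TPM, and the lowest value belonged to the library of mouse a8_11. The other markers examined were less completely detected: 3 of 20 microglia and macrophage, 9 of 18 oligodendrocyte lineage, 14 of 17 neuron, 16 of 17 endothelial and mural, 6 of 10 ependymal and choroid plexus, and 4 of 9 T cell and blood markers. Lyve1, a macrophage marker, was at 0 in all 12 libraries.

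The library of a8_11 stood apart from the other 11, so the edgeR fold changes and list medians of PTE+ against PTE- are given with and without it. Total counts ran from 36925501 to 53272338 over the 12 libraries and a8_11 lay within that range, at 40678048. Only 5943 of the 8554 genes reached 10 counts in a8_11, against 7881 in a8_14 and 8371 to 8552 in the other 10 libraries. Of the 3659 genes that were under 10 counts in 1 library, 2611 were under it in a8_11, and 4895 genes reached 10 counts in all 12. On the first principal component of log2(CPM + 1), where CPM is the count scaled to library size by TMM, a8_11 scored 293 and the other 11 libraries between -33.6 and -18.8. That component held 53.3% of the variance. The second component held 18.1% and set a8_14, at 170.1, apart from the rest, whose highest score was -2.69. Neither of the first 2 components separated PTE+ from PTE-.

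**Figure D1:**
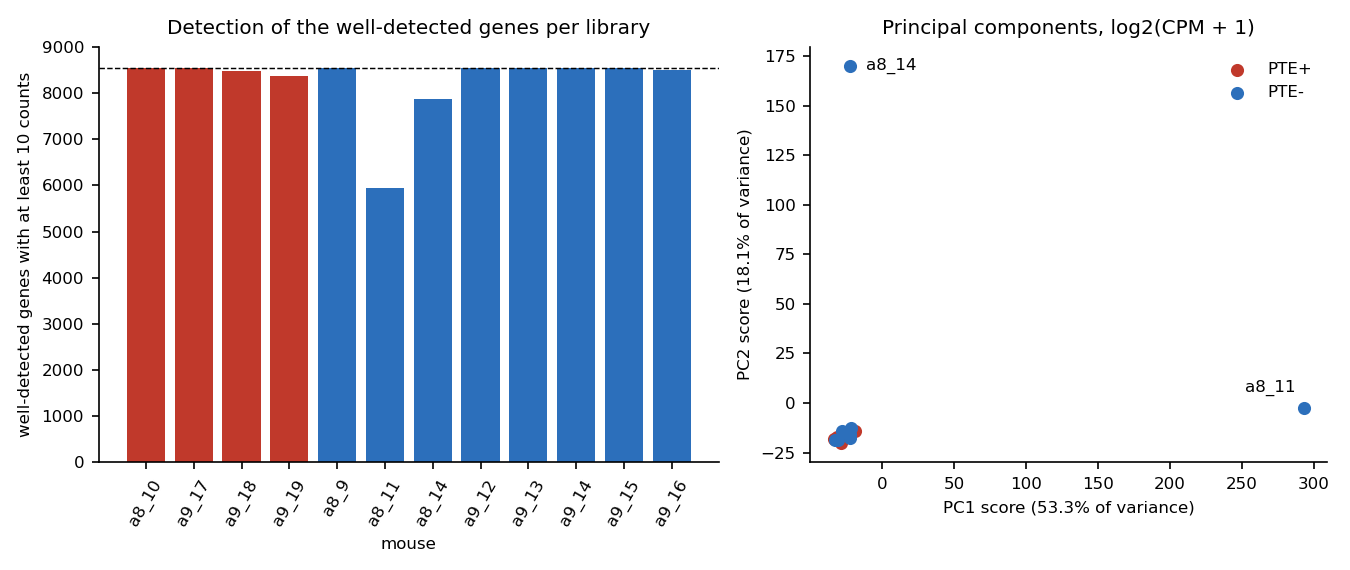
Left, the number of well-detected genes with at least 10 counts in each of the 12 libraries, in red for PTE+ and blue for PTE-, with a dashed line at 8554; a8_11 reached 5943 and a8_14 7881. Right, the scores of the same libraries on the first 2 principal components of log2(CPM + 1), on which a8_11 and a8_14 lie away from the other 10 libraries.

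The library of a8_11 also set the spread. The median SD of log2(CPM + 1) over the 8554 genes was 0.592 among PTE+ libraries and 1.39 among PTE- libraries, and 0.679 among the 7 PTE- libraries without a8_11. The median standard error of the log2 fold change fell from 0.881 to 0.569 when a8_11 was left out. Among genes above a mean of 5 TPM, those that varied least over the 12 libraries were Pkm, Tuba1b, Cd81, Atp5b and Mid1ip1, with coefficients of variation from 11.2% for Pkm to 13.4% for Mid1ip1. Pkm encodes pyruvate kinase of glycolysis, Tuba1b an alpha-tubulin and Atp5b a subunit of ATP synthase. Those that varied most were Mmp12, Tbc1d30, Nefm, Spaca9 and Pcdh20, and a8_11 was the highest library for each of these except Mmp12. The median coefficient of variation was 58.3% with all 12 libraries and 46.6% without a8_11.

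Few genes differed between PTE+ and PTE- mice by edgeR, the main analysis, and none passed its adjusted test. By edgeR's quasi-likelihood test, 47 of the 8554 genes (0.549%) had an unadjusted p under 0.05, against 1.75% of the 14903 genes tested in the whole table. Both shares are below the 5% that this threshold passes when nothing differs. The study's criteria ask for an unadjusted p under 0.05, a fold of at least 1.2 and, in 1 group or both, a mean above 5 TPM. The study applied them to DESeq2, whereas here they were applied to edgeR's p, so the counts are not those of the study's test. By these, 7 genes were higher in PTE+ and 37 were lower. DESeq2 gave an unadjusted p under 0.05 to 187 well-detected genes, against 47 by edgeR. Among all genes tested 0.0738% met the criteria as higher and 0.429% as lower, so the well-detected genes were called at about the rate of all genes. After adjustment no well-detected gene passed 0.05 (0.0% of all genes tested, Benjamini-Hochberg over all genes tested by edgeR). DESeq2 gave 2 such genes, Lrrc17 and Fn3krp, and limma none. Fn3krp, a ketosamine kinase gene named after its values were seen, was at 1.39, 0.529, 0.245 and 0.118 CPM in the PTE+ libraries of a8_10, a9_17, a9_18 and a9_19. In PTE- libraries it ran from 1.29 to 15.8 with a median of 4.18 CPM, and its mean stayed under the TPM criterion (edgeR p = 0.0185). Of the 44 genes that met the criteria, Lrrc17 and Serhl were the 2 whose p stayed under 0.05 in all 12 fits that each left out 1 library. The exact permutation p was under 0.05 for 15 of the 37 lower and 5 of the 7 higher genes, and for 16 and 4 without a8_11. These counts are a description, since the edgeR p from the same libraries chose the 44 genes. Over the 78 genes named by the rule, the smallest Benjamini-Hochberg adjusted exact permutation p was 0.158.

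Leaving out a8_11 reversed the balance of the calls. Then 72 genes (0.842%) had an unadjusted p under 0.05, against 1.86% of all genes tested. The criteria called 41 genes higher, with 0.296% of the whole table as background, and 29 genes lower, with a background of 0.356%. Of the 7 higher genes 6 met the criteria again, and Gal3st3 did not, at p = 0.0504 (edgeR). Of the 37 lower genes 7 met them again: Lrrc17, Serhl, Mt3, Cebpb, Psmf1, Fkbp2 and Gabarap. The other 30 kept their direction but not the threshold. Of the 35 higher genes gained, 16 were under 10 counts in a8_11 and in no other library, as were 9 of the 22 lower genes gained. The same held for 2611 of all 8554 well-detected genes. The highest of the 12 libraries was a8_11 for 32 of the 37 lower genes (86.5%), and for 27.1% of all 8554 genes. The median exon length was 3257.5 bases for the genes highest in a8_11, 3469.5 bases for the 36 lower genes with a length, and 4587.5 bases over all well-detected genes. Whether gene length or detection played a part in these calls was not tested.

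**Figure D2:**
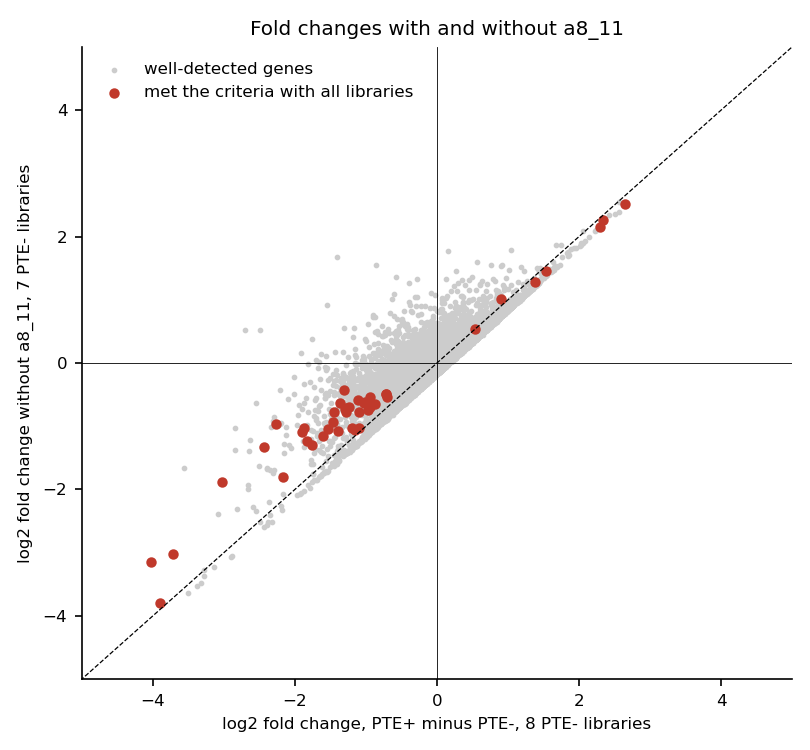
Log2 fold change of PTE+ minus PTE- for each of the 8554 genes (grey) with all 8 PTE- libraries (x axis) and with the 7 that remain without a8_11 (y axis); both axes use the same PTE+ libraries, and the dashed line marks equality. The 44 genes that met the criteria with all libraries are in red, and most of the lower ones lie above the line, nearer to 0, without a8_11.

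Over all 8554 genes the fold changes were centred near 0, which TMM scaling favours by its design and which is no finding by itself. On log2(TPM + 1), which does not use that scaling, the median was 0.29. The median log2 fold change was -0.04 with an interquartile range of -0.40 to 0.29, and -0.01 with a range of -0.28 to 0.28 without a8_11. The estimates of 810 genes were 2-fold or more apart in either direction, and 530 without a8_11. The sign of the fold change changed for 1456 genes when a8_11 was left out, and it stayed the same in all 12 fits that each left out 1 library for 4765 genes (55.7%). The 2611 genes under 10 counts in a8_11 alone had a median log2 fold change of 0.17, and of 0.01 without it. The 4895 genes at 10 counts or more in every library had medians of -0.13 and -0.02.

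Of the lower genes, Lrrc17 had the smallest p. Lrrc17 (chr5:21543559-21575904 in mm10, plus strand) encodes a secreted leucine-rich repeat protein known from bone, where it restrains osteoclast formation. Its level in PTE+ libraries was 2.87, 0.265, 1.53 and 0.413 CPM in mice a8_10, a9_17, a9_18 and a9_19, the order in which PTE+ values are given throughout. In the 8 PTE- libraries it ran from 2.71 to 54.0 with a median of 14.1 CPM. Only the highest PTE+ library exceeded the lowest PTE- library, so the groups overlapped by a single pair of mice. Lrrc17 was 14.9-fold lower in PTE+ (log2 fold change -3.89 ± 1.2, SE, 95% interval -6.41 to -1.38, edgeR p = 0.00434), and -3.80 ± 1.16 without a8_11. The exact permutation test of log2(CPM + 1) gave p = 0.00606, two-sided, where the smallest p that 495 label sets allow is 0.00202. Lrrc17 also had the smallest adjusted p among the well-detected genes by DESeq2, at 0.000481 with all libraries and 0.0019 without a8_11. Sham libraries held 0.839 to 6.93 CPM, and against sham the log2 fold changes were 1.84 for PTE- (1.80 without a8_11) and -2.05 for PTE+. These 3 contrasts share their libraries.

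Serhl, a serine hydrolase-like gene (chr15:83089506-83116674, plus strand), had the second smallest p among the lower genes. Its PTE+ values were 42.4, 52.3, 27.9 and 28.1 CPM, and its PTE- values ran from 46.6 to 115 with a median of 80.3 CPM. The groups overlapped only between a9_17 and the lowest PTE- library. Serhl was 2.22-fold lower in PTE+ (-1.15 ± 0.42, edgeR p = 0.0141, exact permutation p = 0.00404) and -1.06 ± 0.35 without a8_11. Its sham libraries lay at 41.5 to 109.9 CPM, over much the same range as PTE-, with 0.14 for PTE- against sham (0.11 without a8_11) and -1.01 for PTE+ against sham. Lrrc17 and Serhl were the 2 genes among the 12 lower genes with the smallest p that were also among the 5 lower genes with the smallest p without a8_11.

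Cst3 (chr2:148871722-148875692, minus strand) encodes cystatin C, which is secreted and blocks cathepsins and related cysteine proteases. It was the second most abundant of the well-detected genes. PTE+ libraries held 8103, 5005, 5112 and 5469 CPM and PTE- libraries ran from 6142 to 15458 with a median of 8189 CPM. Of the 4 PTE+ libraries, a8_10 lay within the PTE- range and the other 3 lay below it. The difference was 1.62-fold (-0.70 ± 0.29, 95% interval -1.30 to -0.10, edgeR p = 0.0252, exact permutation p = 0.0465). Without a8_11 the log2 fold change was -0.54 ± 0.27 and the edgeR p 0.0614, past the threshold in neither that test nor the permutation test (exact p = 0.0697). Sham libraries spanned 6037 to 14639 CPM, with log2 fold changes of -0.12 for PTE- (-0.21 without a8_11) and -0.81 for PTE+ against sham. In the contralateral hemisphere the log2 fold change of PTE+ against PTE- was -0.68 ± 0.35. Of the 28 well-detected cystatin, cathepsin and lysosome genes, 23 had a negative and 5 a positive fold change, but Cst3 was the only one with a p under 0.05. Their median log2 fold change was -0.19, and -0.17 without a8_11.

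Mt3 (chr8:94152607-94154146, plus strand), the brain-enriched metallothionein that binds zinc and copper, was at 295, 131, 132 and 137 CPM in PTE+ libraries. PTE- libraries ran from 163 to 1637 with a median of 290.3 CPM, and the highest was a8_11. The 3 PTE+ libraries of a9 mice lay below all 8 PTE- libraries, while a8_10 lay above the PTE- median. Mt3 was 2.56-fold lower (-1.36 ± 0.55, edgeR p = 0.0232, exact permutation p = 0.0727), and without a8_11 the estimate was nearer to 0 at -0.64 ± 0.30 (p = 0.0462). Mt1, a metallothionein induced by metals and glucocorticoids, stood at 1361, 785, 676 and 954 CPM in PTE+. Its PTE- values ran from 727 to 5845 with a median of 1100 CPM, the highest again in a8_11. Its log2 fold change was -0.81 ± 0.48 (p = 0.107) and -0.14 ± 0.24 without a8_11 (p = 0.572). Of the 20 well-detected metallothionein and antioxidant genes, 17 had a negative fold change, with a median of -0.31, and 15 had one without a8_11, with a median of -0.18. Mt3 was the only one with a p under 0.05 in either fit.

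Hspb1 and Cryab are small heat shock proteins of reactive astrocytes, which hold unfolded proteins in solution. Hspb1 was at 70.7, 35.5, 38.8 and 16.9 CPM in PTE+ and ran from 16.3 to 465 with a median of 73.8 CPM in PTE- libraries. The groups overlapped widely: 4 PTE- libraries lay within the PTE+ range or below it. Its log2 fold change was -1.83 ± 0.80 (p = 0.0336) and -1.23 ± 0.67 without a8_11 (p = 0.0852). The exact permutation p was 0.2. Cryab was at 126, 54.3, 51.2 and 35.4 CPM in PTE+ and ran from 71.4 to 282 with a median of 99.8 CPM in PTE-, with a log2 fold change of -0.96 ± 0.45 (p = 0.047, exact permutation p = 0.0505) and -0.66 ± 0.35 without a8_11 (p = 0.0748). Both genes were highest in a8_11 among PTE- libraries. Of the larger chaperones, Hspa8, the constitutive HSP70, had a log2 fold change of -0.15 ± 0.24 and Hsp90aa1 of -0.10 ± 0.34, and without a8_11 of -0.18 ± 0.23 and -0.13 ± 0.34. Over the 23 well-detected heat shock chaperones the median was -0.15, with 15 below 0, and without a8_11 it was -0.07, with 12 below 0. Hspb1 and Cryab were the 2 of the 23 with a p under 0.05. Without a8_11 the only one was Cct2, a subunit of the TRiC chaperonin, which was higher in PTE+ at 0.58 (edgeR).

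Heat shock and metallothionein genes are known to be induced through short promoter elements, and the promoters of 3 of these genes are shown to set those elements beside the values. The windows run from 250 bases before to 30 bases after the RefSeq start (GRCm38.p6, plus strand). Both strands were searched. Capitals mark the heat shock element (GAANNTTC or TTCNNGAA) in Hspb1 and the metal response element core (TGCACNC or TGCGCNC) in Mt1 and Mt3.
Hspb1, chr5:135887669-135887948: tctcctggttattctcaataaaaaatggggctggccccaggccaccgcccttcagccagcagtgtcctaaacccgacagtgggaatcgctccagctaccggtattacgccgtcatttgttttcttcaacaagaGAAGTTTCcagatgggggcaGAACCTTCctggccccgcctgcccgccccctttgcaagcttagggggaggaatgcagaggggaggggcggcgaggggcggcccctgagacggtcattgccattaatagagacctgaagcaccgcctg
Mt1, chr8:94178839-94179118: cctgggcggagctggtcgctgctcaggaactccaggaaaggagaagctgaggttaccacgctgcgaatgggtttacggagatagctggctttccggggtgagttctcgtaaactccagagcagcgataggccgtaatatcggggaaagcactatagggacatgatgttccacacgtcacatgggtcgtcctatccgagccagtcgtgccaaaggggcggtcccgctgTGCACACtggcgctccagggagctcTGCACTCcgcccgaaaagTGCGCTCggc
Mt3, chr8:94152357-94152636: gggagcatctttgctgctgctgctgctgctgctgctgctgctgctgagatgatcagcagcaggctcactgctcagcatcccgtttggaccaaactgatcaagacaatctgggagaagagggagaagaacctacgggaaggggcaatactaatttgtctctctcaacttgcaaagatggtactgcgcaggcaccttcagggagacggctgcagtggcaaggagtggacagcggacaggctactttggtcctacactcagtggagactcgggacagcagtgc
The Hspb1 window held 2 heat shock elements and the Mt1 window 3 metal response cores, whereas the Mt3 window held no match to these letters. A heat shock element was present in 14.3% and a metal response core in 24.0% of all 27025 gene windows of this length. Of the 37 lower genes 28 had a window, of which 4 held a heat shock element, 7 a metal response core and 3 a C/EBP site (TTGCNNAA), the last found in 10.3% of all windows. Among the 6788 well-detected genes with a window the shares were 10.99% for the heat shock element, 34.2% for the metal response core and 7.82% for the C/EBP site. A match describes letters, not binding.

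Cebpb and Cebpd encode CCAAT/enhancer-binding proteins that act in the acute-phase response. Cebpb was at 49.5, 30.5, 32.9 and 18.97 CPM in PTE+ and ran from 23.8 to 196 with a median of 69.1 CPM in PTE- libraries, of which a9_14 and a9_15, at 27.1 and 23.8 CPM, lay within the PTE+ range. It was 2.62-fold lower in PTE+ (-1.39 ± 0.58, p = 0.0287) and met the criteria without a8_11 too (-1.08 ± 0.50, p = 0.0444). Its exact permutation p was 0.0828. Cebpb was at 26.2 to 50.7 CPM in sham libraries, with 1.21 for PTE- (0.97 without a8_11) and -0.18 for PTE+ against sham. Cebpd was at 23.6, 31.1, 20.8 and 11.1 CPM in PTE+ and ran from 19.9 to 181 with a median of 37.6 CPM in PTE-, with a log2 fold change of -1.53 ± 0.68 (p = 0.0359, exact permutation p = 0.0909) that was -1.04 ± 0.54 without a8_11 (p = 0.0707).

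Psmf1, Fkbp2 and Gsn were also among the 12 lower genes with the smallest p. Psmf1 encodes PI31, a regulator of the proteasome, and was at 62.2, 55.3, 32.6 and 16.7 CPM in PTE+ and from 44.9 to 152 with a median of 87.2 CPM in PTE- libraries. It kept its estimate without a8_11, from -1.10 ± 0.48 (p = 0.0332, exact permutation p = 0.0242) to -1.04 ± 0.43 (p = 0.029). Fkbp2, a peptidyl-prolyl isomerase of the endoplasmic reticulum, was at 39.7, 45.0, 49.8 and 60.5 CPM in PTE+ against from 48.6 to 233 with a median of 81.1 CPM in PTE-. Its log2 fold change was -1.10 ± 0.48 (edgeR p = 0.0342, exact permutation p = 0.0727), and -0.78 ± 0.37 without a8_11 (p = 0.0496). Gsn encodes gelsolin, which severs actin filaments, and was at 299.5, 261, 446 and 139.5 CPM in PTE+ against from 275 to 1125 with a median of 448 CPM in PTE- libraries. This was a log2 fold change of -0.95 ± 0.40 (p = 0.0278, exact permutation p = 0.0444), and -0.69 ± 0.36 without a8_11 (p = 0.0684).

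Zfand1, a zinc finger protein of stress granule clearance, was at 9.89, 28.8, 2.31 and 0.590 CPM in PTE+ and ran from 20.7 to 115 with a median of 34.0 CPM in PTE- libraries. Of the PTE+ values a9_17 alone lay within the PTE- range. The log2 fold change was -2.17 ± 0.95 (p = 0.0339, exact permutation p = 0.00808), and -1.81 ± 0.88 without a8_11 (p = 0.0545). Tmem185a, a transmembrane protein gene, had log2 fold changes of -1.46 ± 0.60 (p = 0.0255, exact permutation p = 0.0727) and -0.93 ± 0.44 without a8_11. Zfp940, a zinc finger gene, was at 2.5, 7.29, 8.16 and 3.83 CPM in PTE+ and ran from 1.35 to 212 with a median of 15.5 CPM in PTE-. The highest PTE- value of Zfp940 was that of a8_11, and its log2 fold change of -3.03 ± 1.21 became -1.88 ± 0.98 without that library (p = 0.0724). The exact permutation p of Zfp940 was 0.143 with all libraries. Gabarap, an adaptor of autophagy, was the other lower gene that held without a8_11, at -0.72 ± 0.33 with all libraries and -0.49 ± 0.23 without a8_11 (p = 0.0485).

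Some lower genes are known from cells other than astrocytes. Lcp1, the actin bundler L-plastin of blood and microglial cells, was at 12.99, 3.79, 0.205 and 0.452 CPM in PTE+ and ran from 0.194 to 209 with a median of 21.7 CPM in PTE- libraries, with a log2 fold change of -3.72 ± 1.68 (p = 0.0399) and -3.03 ± 1.61 without a8_11 (p = 0.0775). Samhd1, a nucleotide hydrolase that is high in myeloid cells, had one of -1.90 ± 0.83 (p = 0.0344) and -1.09 ± 0.63 without a8_11 (p = 0.101). Cfap157, a gene of motile cilia, had -4.03 ± 1.90 (p = 0.0479) and -3.15 ± 1.81 without a8_11 (p = 0.1). Cfap97d2, of the same kind, had -2.44 ± 1.12 (p = 0.0427) and -1.34 ± 0.90 without a8_11 (p = 0.156). Beside them, the summed level of the 20 microglia and macrophage markers was 81.9 to 1031 TPM in PTE+ libraries and 220 to 1377 TPM in PTE- libraries, with 1342 TPM in a8_11. The members did not move together in a8_11. C1qa, C1qb and C1qc were at 233, 531 and 207 TPM there, while P2ry12, Aif1 and Trem2 were at 0 and Csf1r at 0.01. The summed level of the 10 ependymal and choroid plexus markers was 424 to 2031 TPM in PTE+ and 674 to 11094 TPM in PTE-, with 10054 TPM in a8_11. A large part of the highest sums was Ttr, at 7448 TPM in a9_12 and 4671 TPM in a8_11, with a median of 0 in both groups. Kcnj13 and Clic6 were at 0 in a8_11. Of the 6 well-detected ependymal markers all had a negative fold change, none with a p under 0.05, and their median went from -1.34 to -0.52 without a8_11. The part of these cells in the result was not tested.

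**Figure D3:**
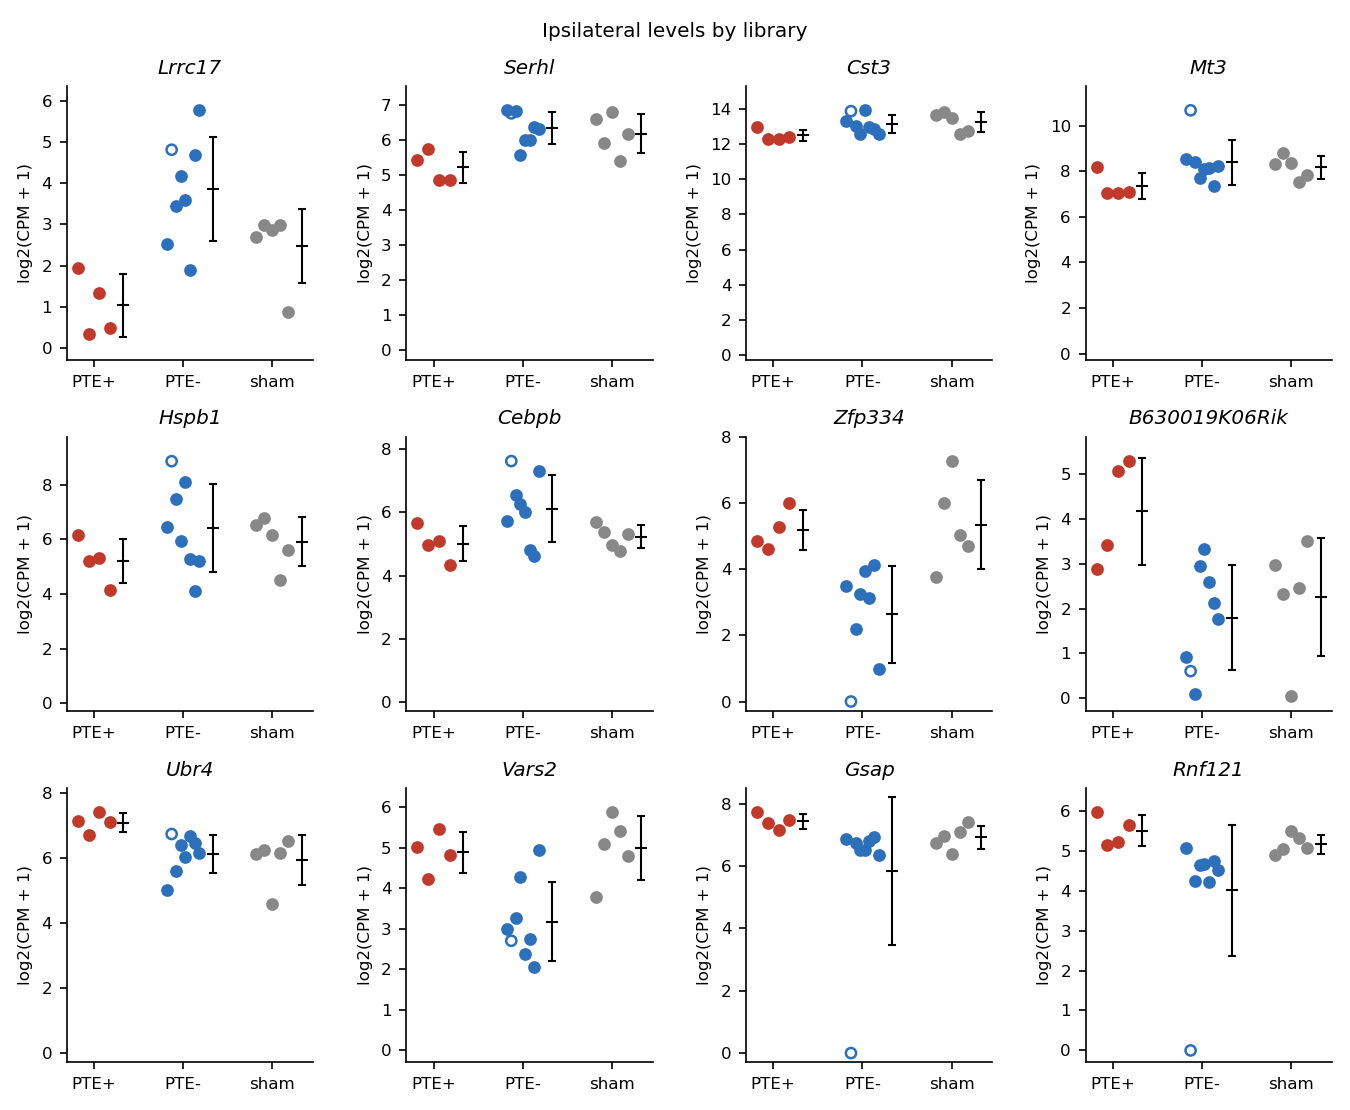
Log2(CPM + 1) of 12 genes in each ipsilateral library of PTE+ (red, n = 4), PTE- (blue, n = 8) and sham mice (grey, n = 5), with the mean and SD beside each group; the open circle is a8_11. The lower genes overlap between groups by few libraries for Lrrc17 and Serhl and by more for Hspb1 and Cebpb, and a8_11 is at 0 CPM for Zfp334, Gsap and Rnf121.

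The 7 genes that met the criteria as higher in PTE+ were B630019K06Rik, Zfp334, Gal3st3, Vars2, Faf1, Ubr4 and Fyn, with log2 fold changes from 0.53 to 2.64. Zfp334, a zinc finger gene (chr2:165374264-165388259, minus strand), was at 28.2, 23.7, 38.0 and 63.1 CPM in PTE+ and ran from 0 to 16.4 with a median of 8.20 CPM in PTE- libraries, the lowest in a8_11. The groups did not overlap with or without a8_11. Zfp334 was 4.93-fold higher (2.30 ± 1.0, edgeR p = 0.0336, exact permutation p = 0.0101), and 2.15 ± 0.71 without a8_11 (p = 0.00744). Its sham libraries held 12.5 to 154 CPM, so that the log2 fold change against sham was -2.88 for PTE- (-2.69 without a8_11) and -0.58 for PTE+.

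Ubr4 encodes a large ubiquitin ligase of the N-degron pathway, which marks proteins by their first residue. PTE+ libraries held 141, 103, 170.0 and 137 CPM, and PTE- libraries ran from 31.0 to 106 with a median of 77.2 CPM. The lowest PTE+ library overlapped with the highest PTE- library, a8_11. Ubr4 was 1.86-fold higher (0.90 ± 0.40, p = 0.0367, exact permutation p = 0.0141), and 1.02 ± 0.36 without a8_11 (p = 0.0111). Faf1, an adaptor that brings ubiquitinated proteins to the p97 ATPase, was at 23.9, 47.4, 80.2 and 139 CPM in PTE+ and from 7.95 to 62.8 with a median of 25.3 CPM in PTE-, with log2 fold changes of 1.39 ± 0.59 (exact permutation p = 0.0545) and 1.28 ± 0.51 without a8_11. Fyn, a Src-family kinase, was at 171, 214, 356 and 258 CPM in PTE+ and from 139 to 233 with a median of 166 CPM in PTE-, with 0.53 ± 0.25 (exact permutation p = 0.0323) and 0.55 ± 0.21 without a8_11. Of the 4 PTE+ values of Fyn 2 lay within the PTE- range.

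Vars2, the mitochondrial valyl-tRNA synthetase, was at 31.1, 17.8, 43.3 and 27.0 CPM in PTE+. Its PTE- libraries ran from 3.16 to 29.9 with a median of 6.32 CPM, and only a9_12 and a9_16 reached the PTE+ range. Vars2 was 2.90-fold higher (1.54 ± 0.70, p = 0.0409, exact permutation p = 0.0162) and 1.46 ± 0.65 without a8_11 (p = 0.0397). B630019K06Rik was at 6.43, 9.74, 32.9 and 38.5 CPM in PTE+ and ran from 0.0647 to 9.03 with a median of 2.88 CPM in PTE-, with 2.64 ± 1.16 (p = 0.0356, exact permutation p = 0.0101) and 2.52 ± 1.14 without a8_11 (p = 0.0412). Gal3st3, a sulfotransferase that acts on galactose, was at 5.41, 2.44, 0.511 and 20.2 CPM in PTE+ and from 0.388 to 2.91 with a median of 1.18 CPM in PTE-, with 2.33 ± 1.08 (p = 0.0442, exact permutation p = 0.0707) and 2.26 ± 1.07 without a8_11. Its highest PTE+ library, a9_19, stood at several times the others, and without a9_19 its log2 fold change was 0.98 (edgeR p = 0.418).

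The genes with the smallest p without a8_11 were mostly ones for which that library held almost no counts. Gsap, which encodes a protein that binds gamma-secretase, was at 212, 165, 142 and 178 CPM in PTE+. The 7 other PTE- libraries ran from 80.7 to 123 CPM, all below the PTE+ libraries, and a8_11 was at 0. Its log2 fold change was 0.80 ± 0.22 without a8_11 (edgeR p = 0.0018, exact permutation p = 0.00303, the smallest that the 330 label sets of 4 and 7 libraries allow). With all libraries it was 0.96 ± 0.83 (p = 0.264). Phf20, a reader of methylated lysine in a histone acetyltransferase complex, had a log2 fold change of 0.95 ± 0.35 without a8_11 (p = 0.0146) and 1.1 ± 0.87 with it (p = 0.221), and a8_11 at 0 CPM. Rragc, a Rag GTPase of amino acid sensing, had 0.69 ± 0.26 without a8_11 (p = 0.0155) and 0.40 ± 0.37 with it (p = 0.29), and a8_11 was the highest library at 196 CPM.

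In the lower direction, Rbm14, an RNA-binding protein of paraspeckles, was at 38.1, 52.3, 24.7 and 32.5 CPM in PTE+, with a PTE- median of 72.5 CPM and a8_11 at 0.620 CPM. Its log2 fold change was -1.07 ± 0.38 without a8_11 (p = 0.012) and -0.90 ± 0.74 with it (p = 0.236). Cpne2, a calcium-dependent membrane-binding copine, had -0.72 ± 0.26 without a8_11 (p = 0.013) and -0.57 ± 0.73 with it (p = 0.445), with a8_11 at 0.387 CPM. Urgcp had -1.43 ± 0.53 (p = 0.0158) and -1.27 ± 1.04 (p = 0.236), with a8_11 at 0 CPM.

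Complete separation of the groups was rare. Every PTE+ library was above every PTE- library for 9 of the 8554 genes, against 0.127% of the whole table, and below every PTE- library for 4, against 0.0403%. The 9 were Zfp334, Yy1, Sbno1, Phf20, Prkrip1, Gsap, Ankrd17, Rnf121 and Phf20l1, and the 4 included Ift22, Sfr1 and Hdc, of which all but Zfp334, Phf20 and Gsap are named after their values were seen. Yy1, a zinc finger transcription factor, was at 29.8, 20.01, 52.4 and 24.2 CPM in PTE+ and ran from 0 to 19.7 with a median of 6.22 CPM in PTE-, with 2.14 ± 1.17 (p = 0.0824) and 1.99 ± 0.90 without a8_11 (p = 0.0424). Hdc, the enzyme that makes histamine, was at 31.7, 31.6, 15.6 and 7.88 CPM in PTE+ and ran from 34.5 to 143 with a median of 57.7 CPM in PTE-, with -1.75 ± 1.17 (p = 0.152) and -1.60 ± 1.17 without a8_11 (p = 0.191). Without a8_11 the counts were 13 above (background 0.155%) and 12 below (background 0.121%). By the deposited TPM, 21 genes were above (background 0.221%) and none was below (background 0.00671%).

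Genes of the translation and respiration machinery were mostly lower in value in PTE+, though few passed the test. Of the 78 cytoplasmic ribosomal protein genes 73 had a negative fold change, against 53.1% of all well-detected genes, and 2 had a p under 0.05. Their median log2 fold change was -0.69, beside -0.04 over all well-detected genes. Without a8_11 68 were negative, none had a p under 0.05 and the median was -0.30, beside -0.01. The 2 were Rps2 (-1.03 ± 0.46, p = 0.0382) and Rpl13a (-1.29 ± 0.60, p = 0.0454), genes with near-identical processed copies whose reads the counting may have split. Without a8_11 they were at -0.64 ± 0.35 (p = 0.0863) and -0.78 ± 0.43 (p = 0.0894). Summed over the 78 genes, PTE+ libraries held 12815 ± 2529 TPM (SD, n = 4) and PTE- libraries 16686 ± 6143 TPM (n = 8), with 30566 TPM in a8_11. The 7 other PTE- libraries averaged 14704 ± 2708 TPM, and all 4 PTE+ values lay within their range of 10233 to 18684 TPM.

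Of the 71 nuclear genes of the respiratory chain and ATP synthase 67 had a negative fold change, with a median of -0.53, and 57 without a8_11, with a median of -0.18. Ndufb2, a subunit of complex I (-1.29 ± 0.58, p = 0.0398), and Atp5g1, of the ATP synthase ring (-1.30 ± 0.61, p = 0.047), had a p under 0.05 with all libraries only. Without a8_11 they were at -0.72 ± 0.38 and -0.43 ± 0.29. Atp5b, one of the 2 most abundant members, was at 0.01 ± 0.15, and 0.07 ± 0.14 without a8_11. The summed level was 29698 ± 2183 TPM in PTE+ and 33908 ± 7519 TPM in PTE- libraries, and 31696 ± 4504 TPM without a8_11, which held 49393 TPM. All 13 mitochondrially encoded genes had a negative fold change in both fits, with medians of -0.20 and -0.19, and none had a p under 0.05. By mean TPM some of the 13 were higher and others lower in PTE+. Their summed level averaged 40260 TPM in PTE+ (16420 to 57480) and 41750 TPM in PTE- libraries (23070 to 79890). On log2(TPM + 1) the median of all well-detected genes shifted to 0.29, and the ribosomal, respiratory and mitochondrial medians were -0.28, -0.15 and -0.04, below that shift in the same order.

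**Figure D4:**
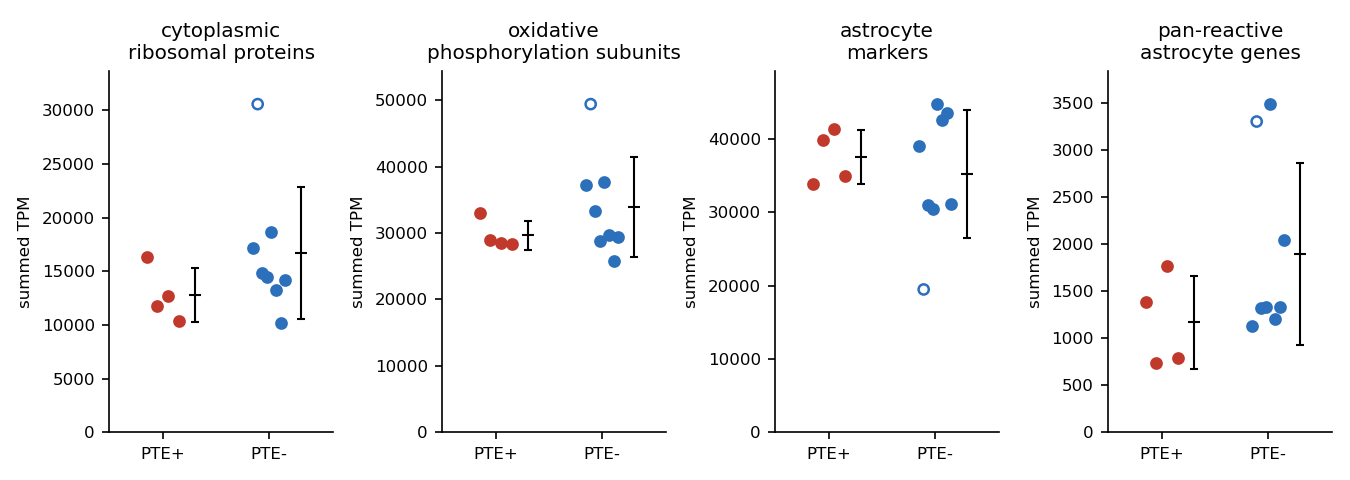
Summed TPM of the ribosomal protein genes (78), the respiratory subunits (71), the astrocyte markers (20) and the pan-reactive genes (6) in each PTE+ (red) and PTE- (blue) library, with the mean and SD beside each group; the open circle is a8_11, the highest library for the first 2 lists and the lowest for the astrocyte markers. Every axis starts at 0.

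Reactive astrocyte genes mostly had negative fold changes. Of the 13 pan-reactive genes 6 were well detected, all 6 had a negative fold change in both fits, and Hspb1 was the only one with a p under 0.05, with all libraries. Their median was -0.77, and -0.59 without a8_11. Gfap, the intermediate filament that marks reactive astrocytes, was at 922, 381, 1612 and 765 CPM in PTE+ and ran from 549 to 3987 with a median of 1090 CPM in PTE-, with -0.61 ± 0.51 (95% interval -1.69 to 0.46, p = 0.248) and -0.64 ± 0.54 without a8_11. Vim, the filament protein vimentin, was at 529, 192, 451 and 128 CPM in PTE+ and ran from 238 to 2660 with a median of 455 CPM in PTE-, with -1.12 ± 0.66 (p = 0.104), and -0.37 ± 0.49 without a8_11, its highest library. Against sham, Vim was at 1.75 in PTE- (1.04 without a8_11) and 0.62 in PTE+. Of the 24 A1 and A2 genes 6 were well detected, 5 with a negative fold change, and none had a p under 0.05. Their median was -0.97, and -0.46 without a8_11, where 4 were negative. Lcn2, Timp1 and Cxcl10 are reactive genes that the study names, with Vim, for sham against PTE- on the injured side. They were not among the well-detected genes, with 10 counts in 5, 4 and 9 libraries. For PTE+ against PTE- on the injured side the study names Spdl1, Slc16a4, Slitrk4, Kctd9, Gbp2b, Tlr13, Trim61, Lilrb4a, Alox5ap and Slc47a1. These reached 10 counts in 2 to 9 libraries and are outside the well-detected genes too. The study also lists Eml1, Map2, Map1b and Ptn, with Sema3f, as altered in PTE+ astrocytes and linked to epilepsy, without giving the hemisphere there. Eml1, Map2, Map1b and Ptn were well detected, and none of these met the criteria in the ipsilateral contrast. Named after their values were seen, Eml1, a microtubule-binding protein gene, was at -1.73 ± 1.08 (p = 0.128) and -1.42 without a8_11. Map2, a dendritic microtubule protein gene, was at 0.53 ± 0.66 and 0.38, Map1b at 0.12 ± 1.24 and -0.04, and Ptn, the growth factor pleiotrophin, at 0.17 ± 0.24 and 0.27, in the same order of fits.

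Immediate early genes had a negative fold change for 13 of 14 well-detected members in both fits, and none had a p under 0.05. Their median was -0.60, and -0.40 without a8_11. Fos, a transcription factor gene induced by activity and by tissue handling, was at 126, 101, 3.27 and 133 CPM in PTE+ and ran from 77.5 to 1917 with a median of 163 CPM in PTE-, with -2.16 ± 1.48 (95% interval -5.26 to 0.94, p = 0.16) and -2.07 ± 1.52 without a8_11. Jun, its partner, was at -0.17 ± 0.56, and -0.27 ± 0.55 without a8_11.

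Among the genes by which astrocytes maintain the synaptic environment none passed the test. None of the 13 glutamate uptake and glutamine cycle genes had a p under 0.05 in either fit, and their medians were 0.13 and 0.10. Slc1a3, the glutamate transporter GLAST, was at 4016, 5411, 7345 and 4813 CPM in PTE+ and ran from 818 to 6602 with a median of 4779 CPM in PTE-, the lowest in a8_11, with 0.23 ± 0.36 (95% interval -0.53 to 0.99) and 0.10 ± 0.25 without a8_11. Glul, glutamine synthetase, was at -0.23 ± 0.25 (95% interval -0.74 to 0.29) and -0.26 ± 0.22 without a8_11. None of the 11 GABA genes, 19 potassium, water and ion transport genes, 18 gap junction and adhesion genes or 7 adenosine and purine genes had a p under 0.05 either. Their medians ran from 0.01 to 0.12, and from -0.01 to 0.16 without a8_11. Slc6a11, a GABA transporter, was at 0.01 ± 0.46, and -0.12 ± 0.31 without a8_11. Gja1 and Gjb6, the astrocytic connexins, were at 0.09 ± 0.27 and 0.19 ± 0.27, and 0.06 ± 0.27 and 0.14 ± 0.24 without a8_11. Mlc1, a membrane protein of astrocyte endfeet, was at -0.31 ± 0.17, and -0.28 ± 0.17 without a8_11. Adk, the kinase that removes adenosine, was at -0.22 ± 0.30 (95% interval -0.84 to 0.41), which leaves room for a change of either sign, and at -0.27 ± 0.25 without a8_11.

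Energy and lipid genes were centred near 0 after TMM scaling. On log2(TPM + 1) the glycolysis and cholesterol lists had medians of 0.21 and 0.40, beside 0.29 over all well-detected genes. Over 26 genes of glycolysis and glycogen the median was -0.0012 with 13 genes on each side, and 0.0039 without a8_11. Aldoc and Gapdh were at -0.06 ± 0.29 and -0.13 ± 0.19, and -0.11 ± 0.27 and -0.07 ± 0.19 without a8_11. Over 30 genes of cholesterol synthesis and lipoproteins it was 0.04, and 0.05 without a8_11. Apoe was at -0.24 ± 0.18 (95% interval -0.61 to 0.13) and Clu at -0.20 ± 0.22, and without a8_11 they were at -0.17 ± 0.18 and -0.20 ± 0.23. The 31 proteasome subunits had a median of -0.11, and 0.04 without a8_11. The 21 interferon response and MHC class I genes had medians of -0.27 and -0.08, and the 16 complement and innate receptor genes of -0.02 and -0.10. None of the genes in these 5 lists had a p under 0.05 in either fit. Hypoxia response, glucocorticoid response, matrix, TGF-beta and Notch, and astrocyte transcription factor genes had no member with a p under 0.05 either, and their medians ran from -0.31 to 0.05, and from -0.06 to 0.03 without a8_11. Among mRNA decay and splicing genes no member of 34 had a p under 0.05 with all libraries, and the median was 0.07, and 0.08 without a8_11. Without a8_11 the only one was Exosc4, a subunit of the RNA exosome, which was higher in PTE+ at 0.95 (edgeR p = 0.0423).

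**Figure D5:**
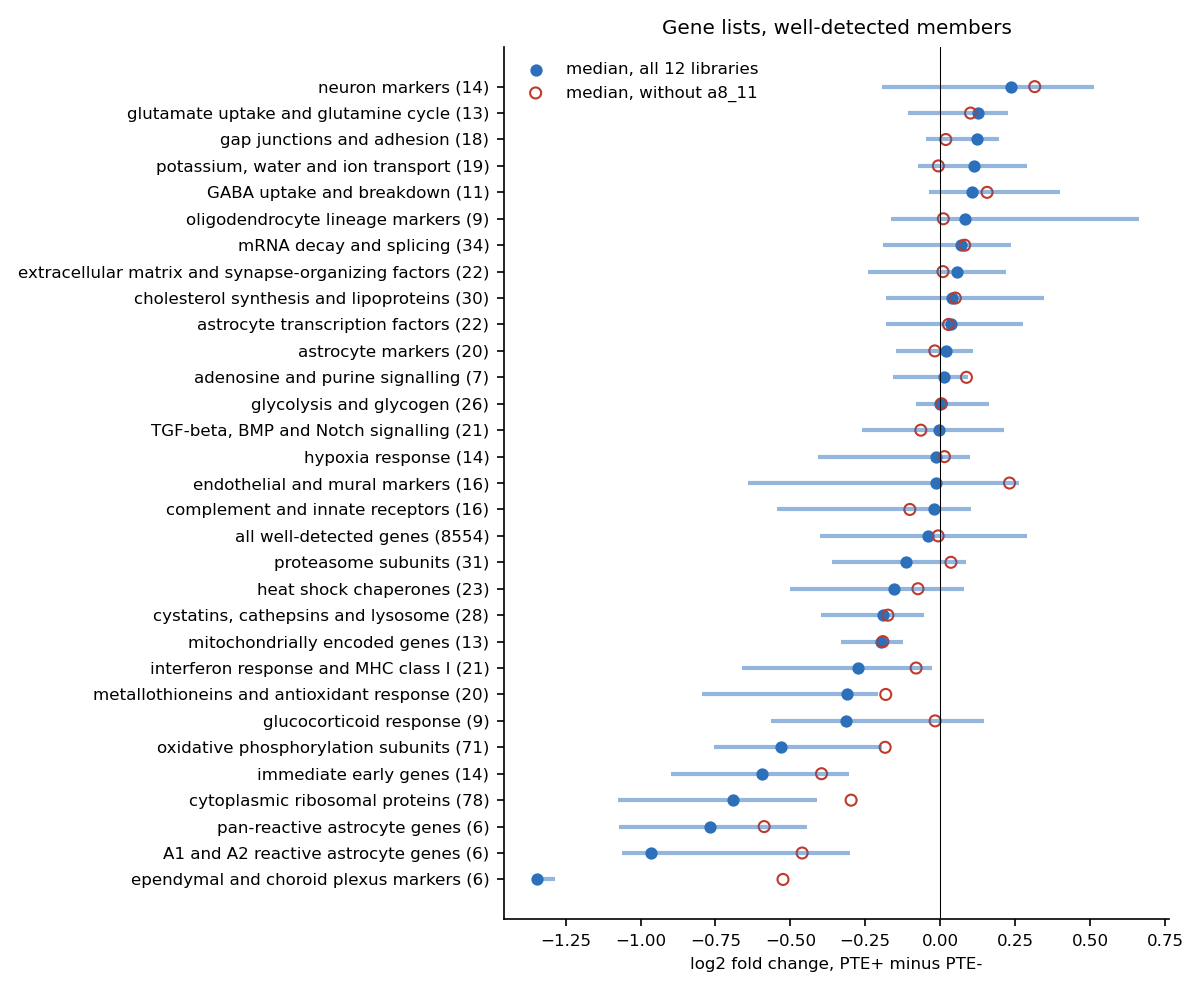
Median log2 fold change of PTE+ minus PTE- for the well-detected members of each list with at least 5 of them (number in brackets), with all 12 libraries (filled, with the interquartile range of the members as a bar) and without a8_11 (open). The lists at the bottom lie below 0 in both fits and nearer to 0 without a8_11, and all 8554 genes have medians of -0.04 and -0.01.

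The contrast was also set beside the contralateral hippocampus, whose PTE+ and PTE- libraries include those of the same 12 mice. Of the 37 lower genes 27 had a negative fold change there as well, with a median of -0.21 against -1.29 on the injured side. Of the 7 higher genes 2 had a positive one, with a median of -0.11 against 1.54. The contralateral median over all well-detected genes was -0.08. None of the 44 had a contralateral p under 0.05, where 2.21% of all genes tested did. The difference between hemispheres was tested by exact permutation of the mice's PTE labels on ipsilateral minus contralateral log2(CPM + 1). Of the 78 genes named by the rule 8 had an unadjusted p under 0.05, and none after Benjamini-Hochberg adjustment over the 78, where the smallest adjusted p was 0.158. Without a8_11 the numbers were 8 and none, with a smallest adjusted p of 0.236. Zfand1 gave the smallest unadjusted p of 0.00202, the smallest the design allows, with a contralateral log2 fold change of 0.55 ± 0.57. Part of the 78 genes, Zfand1 included, was chosen for a small p on the injured side. The values that chose them enter the difference between hemispheres, so these results are a description.

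Set against sham, the 37 lower genes had a median log2 fold change of 0.73 in PTE-, 0.40 without a8_11, and of -0.71 in PTE+, and 6 and 4 of them had a p under 0.05, or 3 in PTE- without a8_11, where 1.58% and 1.66% of all genes tested did. The 7 higher genes had medians of -0.61 in PTE-, -0.50 without a8_11, and 0.70 in PTE+. Both contrasts share the libraries that chose these genes, so the values are a description. Over all well-detected genes, 124 had an unadjusted p under 0.05 for PTE- against sham, 188 without a8_11 (background 1.95%), and 54 for PTE+ against sham, and none passed adjustment by edgeR in any of these.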

How the data were processed

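RNA-seq of astrocytes isolated from the hippocampus was analysed for the 12 ipsilateral libraries of injured mice (4 PTE+, 8 PTE-), with 5 ipsilateral sham libraries in the fit. The libraries were made with SMART-Seq V4 from little RNA and amplified before sequencing. Per the labels and the study's methods, the authors trimmed reads with Trim Galore 0.6.4, aligned them to mm10 with Bowtie2 2.4.1 and deposited expected counts per gene from RSEM 1.2.28, without normalization, and TPM from the same run. The deposited counts were whole numbers. The authors' own tests used DESeq2 1.36.0. The kit does not mark strand, so reads of a gene and an overlapping or antisense gene cannot be told apart.

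Counts were tested in R 4.3.3 with edgeR 4.0.16 (filterByExpr, TMM scaling, quasi-likelihood F test, Benjamini-Hochberg over all 14903 genes tested), and printed as CPM after TMM scaling. Positions came from GENCODE for GRCm38, the assembly of mm10, and promoters from RefSeq. Single genes were also compared by a two-sided exact permutation test of log2(CPM + 1). Values are given with their SE or SD. The replicates are separate mice. The precision was set by the number of mice and by the spread between libraries rather than by depth, and the median biological coefficient of variation of the well-detected genes was 0.966. The procedure was tested on simulated data.

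Genes were named by a fixed rule. It took those the study names for this comparison, for both hemispheres or, as reactive markers, for sham against PTE-. It added up to 12 per direction with the smallest p that met the criteria and kept their sign in each fit without 1 library. It also added list members with a p under 0.05, the 2 most abundant members of each functional list, and 5 per direction without a8_11. Other genes named for separation or by DESeq2, and the other criteria genes, were added after their values were seen. The members and the lists were chosen with earlier results of these data known. Limma 3.58.1 and DESeq2 1.42.0 were alternatives. Some genes are not reported here.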

Additional observations from a re-analysis of the deposited data

Results flagged for a closer look

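Within each group, the highest or lowest library was compared with the range of the others for the named genes and for 3 measures of the libraries. Of 198 groups checked 28 had a library far from the rest, by a rule set to flag about 1 in 20, and 21 of the 27 gene values were those of a8_11. Part of the named genes was chosen by fits with or without a8_11, and all genes share the same libraries. The 1 in 20 is therefore no valid comparison for these counts, which are a description. The number of well-detected genes with at least 10 counts was 5943 in a8_11, far below the other PTE- libraries.

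The library of a8_11 lay far above the other PTE- libraries for Vim (2660 CPM), Mt3 (1637 CPM), Rragc (196 CPM), Atp5g1 (642 CPM), Psmb3 (414 CPM), Mt1 (5845 CPM), Ifitm3 (863 CPM), Nfkbia (841 CPM), Ift22 (390.1 CPM), Sfr1 (284 CPM), Gabarap (347 CPM) and ENSMUSG00000118506 (1029 CPM). It lay far below them for Rbm14 (0.620 CPM), Cpne2 (0.387 CPM), Slc1a3 (818 CPM), Slc6a11 (55.8 CPM), Irak1 (1.86 CPM) and Hnrnpa2b1 (85.5 CPM), and it held 0 CPM of Gsap, Phf20 and Urgcp.

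Among PTE+ libraries, a8_10 lay far from the other 3 for Mt3, at 295 CPM, a9_17 lay far from the other 3 for Tmem185a, at 69.6 CPM, a9_18 lay far from the other 3 for Entpd2, at 523 CPM, a9_18 lay far from the other 3 for Psmb3, at 72.6 CPM, a9_18 lay far from the other 3 for Fos, at 3.27 CPM and a9_18 lay far from the other 3 for Yipf2, at 5.54 CPM. The differences between hemispheres of the 78 genes named by the rule did not pass adjustment (smallest adjusted exact permutation p = 0.158).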

How the results depend on the processing

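As reported, 7 genes were higher and 37 lower. The higher and lower counts were 13 and 38 when only well-detected genes entered the fit, 3 and 21 with the PTE+ and PTE- libraries alone, 8 and 16 with the prefix of the mouse's name as a covariate, and 61 and 34 with a9 mice only. They were 20 and 155 with DESeq2, 130 and 67 with limma voom and quality weights, 78 and 60 with limma on log2(TPM + 1), and 33 and 58 on log2(TPM + 0.1). Without a filter on low counts they were 8 and 21. DESeq2 gave 2 adjusted calls, and the edgeR and limma settings gave 0. Leaving out 1 library moved the higher count between 2 and 41 and the lower count between 10 and 64. The count was 41 higher without a8_11, 12 without a9_14, 2 without a8_9 and 2 without a9_19, and 10 lower without a9_19, 19 without a9_18 and 64 without a9_15. Complete separation counted 21 genes above and 0 below by TPM, and 13 and 12 without a8_11. The cause of these shifts was not tested.

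Of the settings chosen after seeing the data, a covariate for how many genes each library detected gave 43 higher and 7 lower, leaving out a8_11 and a8_14 gave 78 higher and 33 lower, only well-detected genes without a8_11 gave 50 higher and 41 lower, and DESeq2 without a8_11 gave 64 and 125 with 4 adjusted calls (Lrrc17, Fn3krp, Gsap and Rnf121). The direction of the 44 called genes was the same in all 1188 values from other settings, and the p stayed under 0.05 in 678. The main fit chose these genes and the other settings reuse most or all of its libraries. A kept direction was therefore likely in advance and is no independent check. PTE- against sham and the hemispheres without a8_11 were also added then. No paired analysis was possible because each compared PTE+ and PTE- library comes from a different mouse.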

Other observations

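Snhg11, a long noncoding RNA gene of neurons and the single well-detected member of its list, was at 133, 396, 172 and 534 CPM in PTE+ libraries and ran from 55.1 to 266 with a median of 173 CPM in PTE- libraries. Its log2 fold change was 0.91 ± 0.51 (edgeR p = 0.0926), and 1.07 ± 0.51 without a8_11 (p = 0.0511). The 14 well-detected neuron markers had a median of 0.24, and 0.32 without a8_11, and none had a p under 0.05. The summed level of all 17 was 436 to 1648 TPM in PTE+ and 270 to 1144 TPM in PTE- libraries. The 9 oligodendrocyte lineage and 16 endothelial and mural markers that were well detected had medians of 0.08 and -0.01, and 0.01 and 0.23 without a8_11, also with no p under 0.05. The 4 well-detected T cell and blood markers were all haemoglobin genes (Hba-a1, Hba-a2, Hbb-bs and Hbb-bt), and no T cell gene was among them. They had medians of -0.24 and 0.11 in the same order of fits, with no p under 0.05.

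On the contralateral side, 147 of the 8554 genes (1.72%) had an unadjusted p under 0.05 for PTE+ against PTE-, against 2.21% of all genes tested there. Of the 147, 115 were lower and 32 higher, and none passed adjustment by edgeR.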
